A study of Homo sapiens with 6 samples.

Results

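The genes described here encode subunits of the Polycomb repressive complexes and the enzymes that remove their histone mark. They are the 10 genes EZH1, EZH2, EED, SUZ12, JARID2, PHF19, BMI1, CBX7, KDM6A and KDM6B, taken by symbol from the 60660 genes of the count files. Each of them had a row in the files, and each of the 10 passed the filter on low counts that 15155 genes passed. The values come from RNA-sequencing of 12Z cells, an immortalized epithelial line grown from endometriosis. In the control group, 3 libraries were made from cells given a non-targeting siRNA. In the knockdown group, 3 libraries were made from cells given siRNA LINC01133a at 10 nM, which targets the long noncoding RNA LINC01133. Both groups were lysed 72 h after transfection, and the libraries were made from poly-A RNA. A single siRNA against LINC01133, a single control siRNA and a single cell line were sequenced, so an effect of this siRNA and one of losing LINC01133 cannot be told apart. The labels do not say whether the libraries of a group come from separate cultures, whereas the study calls them biological replicates, so the p-values measure the spread between these libraries.

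Polycomb repressive complex 2 (PRC2) methylates lysine 27 of histone H3, and the trimethylated form (H3K27me3) marks silenced genes. EZH2 or its paralog EZH1 is the catalytic subunit, and works only together with EED and SUZ12, while accessory subunits such as JARID2 and PHF19 guide the complex to chromatin. Polycomb repressive complex 1 (PRC1) holds a PCGF subunit such as BMI1 and, in its canonical form, a CBX subunit such as CBX7 that reads the mark. KDM6A (UTX) and KDM6B (JMJD3) are the demethylases that take it off. LINC01133 has been described in other cell types as a partner of EZH2, and the study lists EZH2 targets among its enriched gene sets. The question addressed here is whether the RNA of the complexes themselves differed between control and knockdown cells.

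The siRNA is shown because its seed, the bases 2 to 8 that can pair with other transcripts, is the part that could act on the Polycomb genes directly. Both strands are given 5′ to 3′ with the seed in capitals.
siRNA LINC01133a, antisense strand: uCCAUUCUcagguaacuucaa
siRNA LINC01133a, sense strand: gAAGUUACcugagaauggatt
The 7-base match to the antisense seed is AGAATGG and that to the sense seed is GTAACTT. Neither was found in the annotated 3′ UTRs of the Polycomb genes and demethylases: 0 of 10 held a match to either seed, over UTRs of up to 263 bases for EZH2 and up to 3119 bases for CBX7. Among the 12518 tested genes with an annotated 3′ UTR, 20.7% held the match to the antisense seed and 15.8% that to the sense seed. The wider Polycomb list described below has 61 tested genes, of which 19 rose and 13 fell. Of all genes tested, 23.3% rose and 25.0% fell. The antisense match was held by 19 (31.1%) of the 61, of which 7 fell, 3 rose and 9 did not pass the test. Those that fell were RBBP7, LCOR, CBX6, PHC2, YAF2, FOXK1 and FOXK2, and those that rose were RYBP, AUTS2 and HCFC1. This division depends on scaling. With library size alone as scaling, RBBP7, PHC2, YAF2, FOXK1 and FOXK2 no longer passed, and SCML1, which also holds the match, passed as higher. The call of HCFC1 was lost when control replicates 1 and 3 or knockdown replicates 1 and 3 were left out in turn. The sense match was held by 8 (13.1%), of which 2 fell, 3 rose and 3 did not pass. Those that fell were AEBP2 and LCORL, and those that rose were PCGF3, SCML2 and RYBP. LCORL did not pass with library size alone. The part of these matches in the changes was not tested. This search covers the letters of these UTRs only and says nothing about pairing elsewhere in a transcript.

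EZH2, EED and SUZ12 are known as targets of E2F factors, the transcription factors of the G1 to S transition, so the promoters were searched for the words TTTCCCGC, TTTCGCGC, TTTGCCGC and TTTGGCGC on both strands. RefSeq windows from 250 bases before to 50 bases after a gene start (GRCh38.p14) were at hand for 10 of the 10 genes, 15 windows in all. A word was present in 4 of these windows, against 3.31% of all 35116 windows. Each word holds the base pair step CG, so its frequency can depend on CG content. The ratio of observed to expected CG was 0.91 to 1.1 in the windows with a word, against a median of 0.579 over all windows. The part of CG content in this count was not tested. The 4 matches are shown in capitals, read on the strand of the gene.
EZH2, chr7:148884283-148884290, minus strand: ggctgccgcgTTTGGCGCtcggtccggt
EZH1, chr17:42745148-42745155, minus strand: cggggttttgGCGGCAAAtgacagtagt
SUZ12, chr17:31936818-31936825, plus strand: gacccctaatTTTCCCGCgaattcagtt
PHF19, chr9:120877333-120877340, minus strand: tcaataattcGCGGGAAAacgcgaaaaa
The word of EZH2 begins 1 base past the start of transcription and reads forward. That of SUZ12 lies 189 bases before the start, and those of EZH1 and PHF19, which read in reverse, lie 115 and 152 bases before it. A match describes letters and is not evidence of a bound factor. Of these 4 genes, EZH1 and EZH2 rose in knockdown cells, and the other two did not pass the test, as given below.

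Depth lay between 27742562 and 37551194 read pairs counted on genes per library. Normalized counts are read pairs scaled by edgeR's TMM method to the mean library, and log2 fold changes are given as knockdown against control. A gene is said to have changed where its adjusted p, over all genes tested, was under 0.05, and is called differentially expressed (DE) where its fold change was also over 1.5, the cutoffs of the study. LINC01133 itself had 813 to 837 normalized counts in control libraries and 130 to 138 in knockdown libraries. The keratins KRT8, KRT18 and KRT19 were high in every library. However, the epithelial adhesion molecule EPCAM had a mean of 13.6 normalized counts in control cells and the stromal collagens COL1A1 and COL3A1 had means of 87700 and 125479. Of the 6 leukocyte markers, CD14 had a mean of 1707 normalized counts in control and 863 in knockdown cells, PTPRC, which defines leukocytes, had 23.8 and 20.4, and the others did not pass the filter on low counts, with CD3E at 0 in all 6 libraries. Control replicate 2 stood apart in its long transcripts: 589 genes with a transcript over 10000 bases were 0.16 higher on the log2 scale (median) than in the other control libraries, while the difference for all other genes was -0.0051.

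Among the 10 genes, 5 rose, 2 fell and 3 did not pass the test, and none was DE. KDM6B rose most, to 1.42 times its control level, followed by KDM6A, JARID2, EZH1 and EZH2, while BMI1 and CBX7 fell. Across all genes tested, 48.3% passed the test, 23.3% with higher and 25.0% with lower counts in knockdown cells, so a change of some size was common. DE genes made up 11.7% of all genes tested (5.30% higher and 6.43% lower), and the count of 0 of 10 held in DESeq2 as well, although 8 of the 10 had an unadjusted p under 0.05 with edgeR. The median log2 fold change was 0.13 for the 10 genes and 0.0032 for all genes tested. Control and knockdown libraries did not overlap for 6 of the 10, with 5 higher and 1 lower in knockdown cells, against 57.3% of all genes tested (28.3% higher and 29.0% lower). In RNA from whole cultures, fewer cells that express a gene and less RNA per cell cannot be told apart.

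**Figure D1:**
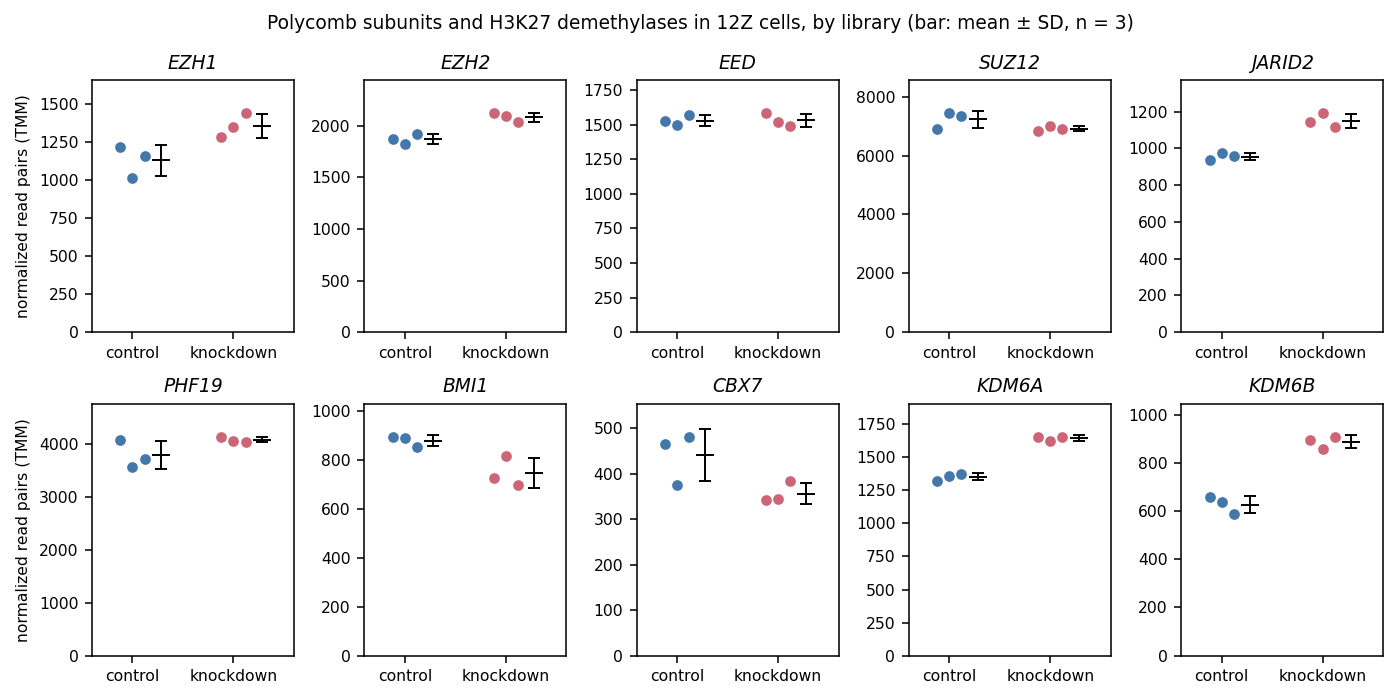
Normalized read-pair counts (y axis, from 0) of the 10 genes in the 3 control and 3 knockdown libraries, with the mean and SD of each group as a bar. KDM6A and KDM6B show gaps that are wide relative to the spread within each group, whereas the libraries of EED, SUZ12, PHF19 and CBX7 overlap between groups.

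EZH2 (ENSG00000106462.11, chromosome 7 from 148807257 to 148884321, minus strand, GRCh38) had 1868, 1820 and 1921 normalized counts in control libraries 1 to 3 and 2120, 2091 and 2032 in knockdown libraries 1 to 3. All knockdown libraries lay above all control libraries. The mean rose from 1870 ± 50.5 to 2081 ± 44.8 (SD, n = 3 per group), which is on the log2 scale a difference of 0.15 (standard error 0.040, edgeR adjusted p = 0.0061) with a 95% interval from 0.068 to 0.24. Of all genes tested, 60.5% had a change of at least this size.

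EZH1 (ENSG00000108799.13, chromosome 17 from 42700275 to 42745049, minus strand), the paralog that predominates in cells that divide little, had 1216, 1015 and 1161 normalized counts in control libraries and 1283, 1347 and 1441 in knockdown libraries. The groups did not overlap, and control replicate 2 was the lowest library. The mean rose from 1130 ± 104 to 1357 ± 79.6 (SD, n = 3 per group), and the log2 fold change was 0.26 (standard error 0.065, edgeR adjusted p = 0.0050). Leaving out control replicate 2 gave 0.18 on the log2 scale, which still passed (edgeR adjusted p = 0.0082).

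Because both catalytic genes rose, their ratio within a library, which no scaling can alter, was compared. The count of EZH2 was 1.54, 1.79 and 1.66 times that of EZH1 in control libraries and 1.65, 1.55 and 1.41 times in knockdown libraries. These values overlapped, and the difference of the log2 ratio was -0.11 (exact two-sided permutation p = 0.40, n = 3 each). This comparison was 1 of 4 ratios, for which the smallest possible p is 0.10.

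EED and SUZ12, the core subunits without which neither EZH protein is active, did not pass the test. EED (chromosome 11 from 86201212 to 86278813, plus strand) had 1525, 1495 and 1568 normalized counts in control and 1583, 1516 and 1491 in knockdown libraries, and the 2 groups overlapped throughout. Its log2 fold change was 0.0014 with a 95% interval from -0.091 to 0.094 (edgeR adjusted p = 0.98). SUZ12 (chromosome 17 from 31937007 to 32001038, plus strand) had 6911, 7443 and 7337 normalized counts in control and 6833, 6996 and 6897 in knockdown libraries. The groups overlapped, with a log2 fold change of -0.065 and a 95% interval from -0.15 to 0.017 (edgeR adjusted p = 0.18). Without control replicate 1, SUZ12 passed at -0.097 (edgeR adjusted p = 0.048).

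The other core subunits are the histone-binding proteins RBBP4 and RBBP7, which also serve in several other chromatin complexes. RBBP4 had a log2 fold change of -0.018 (edgeR adjusted p = 0.68), and RBBP7 fell by 0.10 on the log2 scale (edgeR adjusted p = 0.029), a call that was lost with library size alone as scaling (-0.042) and when control replicate 3 (-0.08) or any of the knockdown libraries (-0.11 to -0.09) was left out. In all, 2 of the 6 core genes rose, 1 fell and 3 did not pass, where 23.3% of all genes tested rose and 25.0% fell.

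JARID2 and PHF19 belong to different forms of PRC2. JARID2, which together with AEBP2 defines the PRC2.2 form, had 935, 973 and 959 normalized counts in control and 1146, 1192 and 1115 in knockdown libraries (chromosome 6 from 15246069 to 15522042, plus strand). No knockdown library came near the control range, and the mean rose from 956 ± 19.2 to 1151 ± 38.9 (SD, n = 3 each). The log2 fold change was 0.27 (standard error 0.047, edgeR adjusted p = 3.7e-04).

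PHF19, a PCL protein of the PRC2.1 form that binds methylated lysine 36 of histone H3, had 4073, 3559 and 3719 normalized counts in control and 4140, 4065 and 4039 in knockdown libraries (chromosome 9 from 120855651 to 120894896, minus strand). Control replicate 1 reached the knockdown range and the other control libraries lay below it. The log2 fold change of 0.11 (95% interval from 0.0067 to 0.21) did not pass after adjustment (edgeR adjusted p = 0.074). It passed when control replicate 1 was left out (0.17) and when only library size was used for scaling (0.17), and was 0.064 without control replicate 2. The count of PHF19 was 4.36, 3.66 and 3.88 times that of JARID2 in control libraries and 3.61, 3.41 and 3.62 times in knockdown libraries. The ratio did not overlap between groups (log2 difference -0.16), at the smallest p that 3 against 3 libraries allow (exact two-sided permutation p = 0.10, adjusted over the 4 ratios 0.13).

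The remaining accessory subunits moved in both directions. AEBP2, the partner of JARID2 in PRC2.2, fell from 2749 ± 126 to 2054 ± 10.6 normalized counts (SD, n = 3 per group), which is on the log2 scale a difference of -0.42 (standard error 0.042, edgeR adjusted p = 3.1e-06). This was the lowest value among the 61 Polycomb genes tested. Its 3′ UTR holds 1 match to the sense seed of the siRNA (chr12:19519146-19519152, plus strand), ggaaatatgtGTAACTTgttagtattgt, with the match in capitals, and the part of this match in the result was not tested. The PCL genes had close values: MTF2 rose by 0.16 (edgeR adjusted p = 0.0075) and PHF1 had 0.11 (edgeR adjusted p = 0.11). LCOR and LCORL, whose loci also encode the PALI proteins of PRC2.1, fell by 0.24 and decreased by 0.13 on the log2 scale. LCOR was lower by less, at -0.15, without control replicate 2, and still passed. The call of LCORL was not firm: it was lost with DESeq2 (-0.13) and in the unstranded counts (-0.02), and when control replicate 3 (-0.08) or any of the knockdown libraries (-0.13 to -0.12) was left out. EPOP and EZHIP, of which the latter is an inhibitor of PRC2, had 0 counts in all 6 libraries.

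BMI1 (PCGF4; chromosome 10 from 22321099 to 22331484, plus strand), which stimulates the ubiquitin ligase of PRC1, had 895, 887 and 853 normalized counts in control and 726, 816 and 695 in knockdown libraries. All knockdown libraries lay below the control range, and knockdown replicate 2 was nearest to it. The mean fell from 878 ± 22.1 to 746 ± 62.4 (SD, n = 3 per group), and the log2 fold change was -0.23 (standard error 0.062, edgeR adjusted p = 0.0069). The readthrough gene COMMD3-BMI1 shares 22.8% of the exonic bases of BMI1 on the same strand. STAR leaves out read pairs that fall on more than 1 gene, so the level of BMI1 can be understated in all 6 libraries.

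CBX7 (chromosome 22 from 39120167 to 39152680, minus strand) had the lowest counts of the 10 genes. It had 465, 376 and 482 normalized counts in control and 342, 344 and 383 in knockdown libraries, and control replicate 2 lay below the highest knockdown library. The mean fell from 441 ± 56.7 to 356 ± 23.6 (SD, n = 3 per group), which is on the log2 scale a difference of -0.32 (standard error 0.094, edgeR adjusted p = 0.013). The call was not firm. Without control replicate 2 the change was -0.42 (edgeR adjusted p = 1.7e-04), but it no longer passed when control replicate 1 (-0.28), control replicate 3 (-0.25), knockdown replicate 1 (-0.28) or knockdown replicate 2 (-0.29) was left out, with edgeR adjusted p values between 0.057 and 0.064. COX5BP7 shares 3.7% of the exonic bases of CBX7 on the same strand, where read pairs are left out. A gene on the opposite strand overlaps 17.9% of the exonic bases of CBX7, and with the unstranded counts the change was -0.26 (edgeR adjusted p = 0.061). Within a library, the count of CBX7 was 0.249, 0.207 and 0.251 times that of EZH2 in control and 0.161, 0.164 and 0.189 times in knockdown libraries. The ratio was lower in all knockdown libraries (log2 difference -0.46, exact two-sided permutation p = 0.10, adjusted over the 4 ratios 0.13).

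The demethylases had the lowest adjusted p values of the 10 genes. KDM6B (chromosome 17 from 7834217 to 7854796, plus strand), an inducible enzyme of stress, inflammation and differentiation, had 657, 636 and 586 normalized counts in control and 895, 858 and 909 in knockdown libraries. The groups lay far apart relative to their spread, and the mean rose from 626 ± 36.8 to 887 ± 26.0 (SD, n = 3 each). The log2 fold change was 0.50 (standard error 0.058, edgeR adjusted p = 1.1e-05) with a 95% interval from 0.38 to 0.63, which reaches past the cutoff of a 1.5-fold change. A change of at least this size was seen in 18.0% of all genes tested.

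KDM6A (chromosome X from 44873188 to 45112779, plus strand), the broadly expressed enzyme that works with the histone methyltransferases KMT2C and KMT2D, had 1323, 1359 and 1375 normalized counts in control and 1658, 1621 and 1658 in knockdown libraries. The spread within each group was small, and the mean rose from 1352 ± 26.4 to 1645 ± 21.4 (SD, n = 3 each). The log2 fold change was 0.28 (standard error 0.040, edgeR adjusted p = 7.3e-05). The count of KDM6B was 0.496, 0.469 and 0.426 times that of KDM6A in control libraries and 0.540, 0.530 and 0.548 times in knockdown libraries. All knockdown ratios were higher (log2 difference 0.22, exact two-sided permutation p = 0.10, adjusted over the 4 ratios 0.13).

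**Figure D2:**
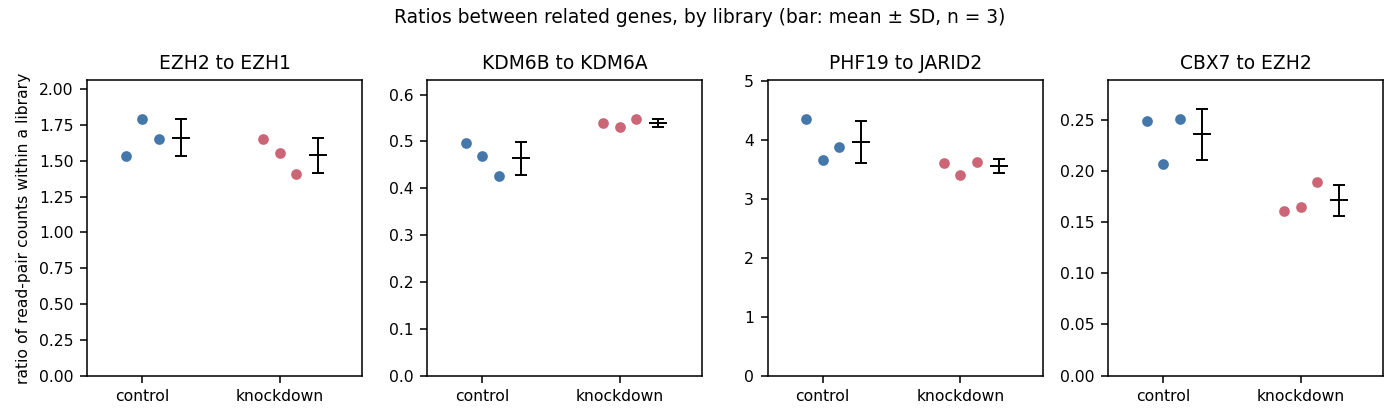
Ratios of read-pair counts (y axis, from 0) between related genes in each control and knockdown library, with the mean and SD of each group (n = 3) as a bar. The ratio of EZH2 to EZH1 overlaps between groups, while KDM6B to KDM6A is higher, and PHF19 to JARID2 and CBX7 to EZH2 are lower, in all 3 knockdown libraries.

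The partners of KDM6A did not move as 1 group. NCOA6 rose by 0.32 on the log2 scale (edgeR adjusted p = 1.7e-04), whereas PAXIP1 (0.061) and PAGR1 (-0.015) did not pass. KMT2D and KMT2C had log2 fold changes of -0.26 and -0.22 that did not pass either (edgeR adjusted p = 0.15 and 0.19). Both are very long transcripts and were high in control replicate 2, with 3502 normalized counts for KMT2D against 2147 and 2165 in the other control libraries and 1949 to 2324 in knockdown libraries. KMT2C had 5504 there, against 3519 and 3478 in the other control libraries.

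The order of the 10 genes was compared by the level per length, which is the count per kilobase of exon scaled for library depth (CPM per kilobase), since counts of genes of different length are not comparable. SUZ12 was highest, with 34.1 ± 1.33 in control and 32.6 ± 0.388 in knockdown cells (SD, n = 3 each). PHF19 followed with 17.7 ± 1.23 and 19.1 ± 0.246, and EED with 6.76 ± 0.162 and 6.76 ± 0.210. In control cells the order went on with BMI1 (6.17), EZH2 (5.36), EZH1 (5.00), JARID2 (4.73), KDM6B (2.62), CBX7 (1.82) and KDM6A (1.51). The levels of EZH2 and EZH1, and those of EZH1 and JARID2, overlapped between libraries in either group. All other neighbours were separate in control cells. In knockdown cells BMI1 (5.24) lay below EZH2 (5.97), and CBX7 (1.47) below KDM6A (1.83), so with this length both neighbouring pairs changed places. The mean of BMI1 was also below those of EZH1 (6.00) and JARID2 (5.70), with overlapping libraries, and the mean of EZH1 was just above that of EZH2. The order depends on the gene length that is used. With the longest transcript in place of all annotated exons, neither pair changed places: EZH2 lay above BMI1 in control (12.8 and 7.66) and knockdown cells (14.3 and 6.51), and KDM6A above CBX7 (3.45 and 3.31, then 4.20 and 2.68). By that length, 5 of the 10 genes kept their rank, and EZH2 (mean 13.6 over all libraries) came ahead of EZH1 (8.29) and BMI1 (7.09).

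**Figure D3:**
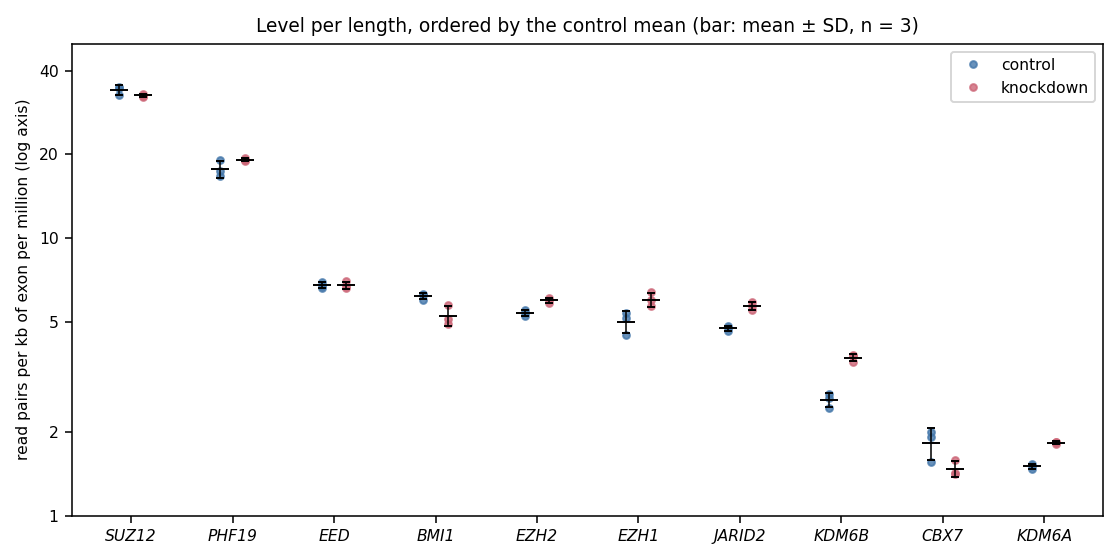
CPM per kilobase of exon (y axis, log scale) for the 10 genes, ordered by the control mean, with each library as a point and the mean and SD of each group (n = 3) as a bar. SUZ12 and PHF19 stand above the rest, and KDM6A and CBX7 change places between control and knockdown cells with this length, but not with that of the longest transcript.

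The wider Polycomb system was described from a list of 64 genes that includes the 10. Of these, 61 were tested, and 19 rose, 13 fell and 29 did not pass. The share that passed, 52.5%, was near the 48.3% of all genes, and the median log2 fold change was 0.0014. With library size alone as scaling, 25 of the 31 that passed were higher in knockdown cells, so the division by direction depends on scaling. DE genes were 2 of 61, against 11.7% of all genes, and both were higher.

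One of the DE genes was SCML2, a Sex comb protein that associates with PRC1. It had 391, 440 and 421 normalized counts in control and 952, 951 and 844 in knockdown libraries, so that the knockdown libraries lay far above the control range. The log2 fold change was 1.14 (standard error 0.068, edgeR adjusted p = 3.1e-08), the highest on the list. Its 3′ UTR holds 1 match to the sense seed of the siRNA (chrX:18239643-18239649, minus strand), attactttgtGTAACTTtgatgtaatgt.
The other was MBD6, a subunit of PR-DUB, the complex that removes the ubiquitin placed by PRC1. It rose from 939 ± 79.5 to 1431 ± 14.2 normalized counts (SD, n = 3 per group), which is on the log2 scale a difference of 0.61 (standard error 0.056, edgeR adjusted p = 1.7e-06). It lay close to the cutoff and was under it without control replicate 2 (0.56) or control replicate 3 (0.58).

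Within PRC1, the RING proteins that carry the ligase activity did not pass the test, with log2 fold changes of 0.095 for RING1 and -0.049 for RNF2. Of the 8 RING and PCGF genes, PCGF3 rose by 0.34 (edgeR adjusted p = 6.9e-06) and BMI1 and PCGF6 fell. PCGF6 had a log2 fold change of -0.27 (edgeR adjusted p = 6.5e-04). Among the CBX, PHC and SCM genes of canonical PRC1, 3 rose and 3 fell of 11, and CBX7 was the lowest. For both groups of PRC1 genes, the shares over all genes tested were 23.3% that rose and 25.0% that fell. CBX6 fell by 0.21 and PHC2 fell by 0.15 on the log2 scale, while PHC1 and SCMH1 rose by 0.29 and 0.32. The call of PHC2 was lost with library size alone as scaling (-0.086). CBX2 and CBX8 had values of -0.14 and -0.12 that did not pass.

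In variant PRC1, which works without a CBX reader, 5 of 12 genes rose and 1 fell, against 23.3% and 25.0% of all genes tested. Of those that rose, AUTS2 (0.16) did not pass with DESeq2 (edgeR adjusted p = 0.046, DESeq2 adjusted p = 0.082) or when control replicates 1 and 3 or knockdown replicates 2 and 3 were left out in turn. MGA, with 0.08, passed only without control replicate 2 (0.22). FBRS, a partner of PCGF3 and PCGF5, rose by 0.34 (edgeR adjusted p = 2.0e-05), and YAF2 fell by 0.21 (edgeR adjusted p = 0.019), although it did not pass with library size alone as scaling (-0.14) or without control replicate 1 (-0.19) or knockdown replicate 1 (-0.18). Of the 10 PR-DUB genes tested, 3 rose and 3 fell. OGT, the only human enzyme that adds O-GlcNAc to nuclear and cytosolic proteins, rose from 6089 ± 205 to 8621 ± 617 normalized counts (SD, n = 3 per group), which is on the log2 scale a difference of 0.50. BAP1, the catalytic subunit, had 0.047 (edgeR adjusted p = 0.48), and ASXL3 had 0 counts in every library. FOXK1 fell by 0.21, a call that was lost with library size alone (-0.15) and when control replicate 3 (-0.20) or knockdown replicates 2 (-0.19) and 3 (-0.15) were left out in turn.

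**Figure D4:**
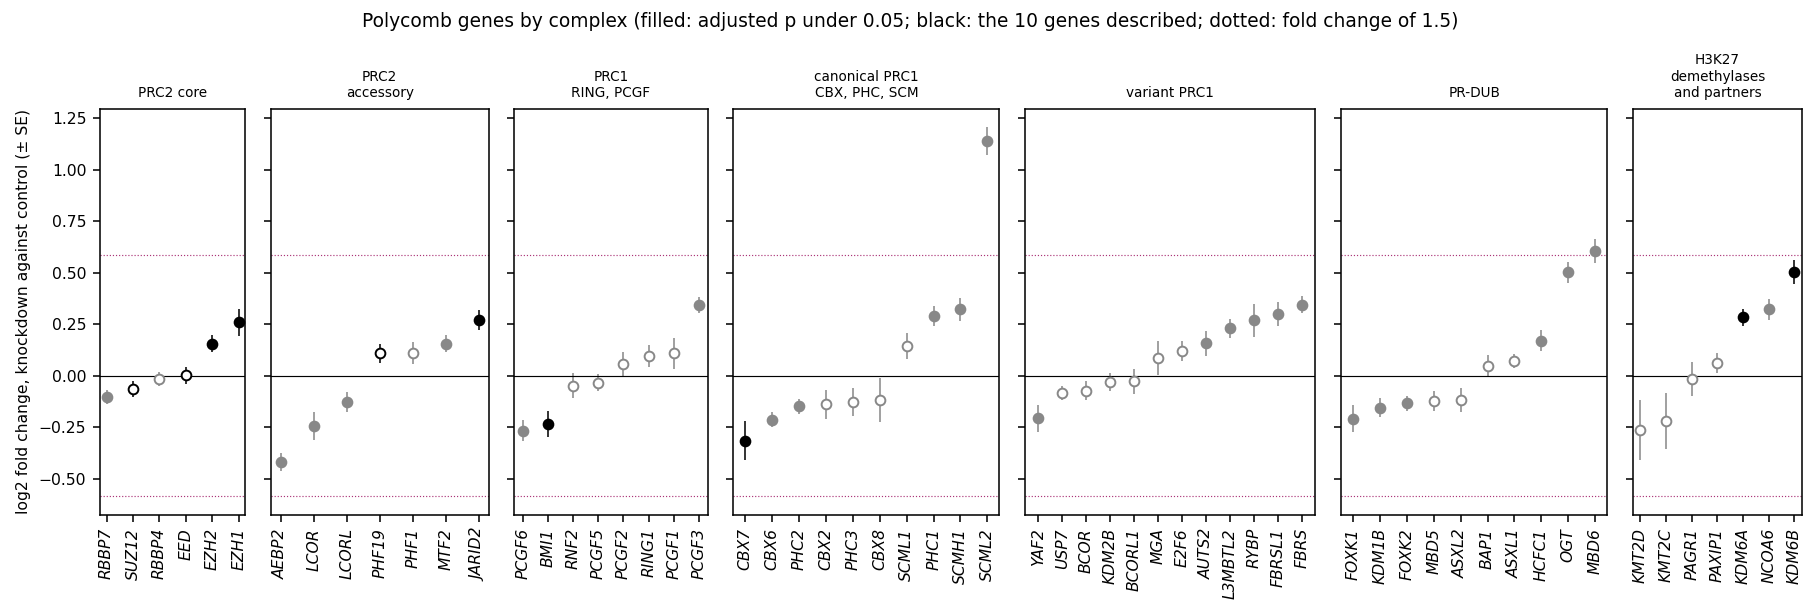
Log2 fold change (y axis, knockdown against control, bar: standard error) of tested Polycomb genes by complex, with an adjusted p under 0.05 as a filled point and the 10 genes described in black. SCML2 (1.14) and MBD6 (0.61) are the genes beyond a 1.5-fold change, and every complex holds genes on both sides of 0.

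The genes that have been reported as targets of LINC01133 with EZH2 in other cells were then placed beside the complex. KDM1A (LSD1), a histone demethylase reported as a further partner, fell from 6468 ± 91.2 to 5569 ± 108 normalized counts (SD, n = 3 per group), which is on the log2 scale a difference of -0.22 (edgeR adjusted p = 2.2e-04). Its 3′ UTR holds 1 match of 8 bases to the antisense seed, and that of CDH1 holds 1 match of 7 bases to the sense seed. The part of these matches in the changes was not tested. KLF2, a transcription factor, had 285, 284 and 273 normalized counts in control and 108, 111 and 124 in knockdown libraries. It fell to 0.405 times its control level, a log2 fold change of -1.30 (standard error 0.097, edgeR adjusted p = 2.1e-07). The cell adhesion gene CDH1 was also DE and lower (log2 fold change -2.02), while CDKN1A, which encodes the cell cycle inhibitor p21, and SOX4 were DE and higher (0.93 and 0.76). By PCR, the paper measured CDH1 and SOX4 with LINC01133a and also with another siRNA against LINC01133. It reported CDH1 lower and SOX4 higher with each siRNA. Of the 5 genes, counting the partner KDM1A, 2 rose and 3 fell, where 48.3% of all genes tested passed. Studies cited by the paper describe LINC01133 as repressing KLF2, CDKN1A, CDH1 and SOX4 in other cells. Of these targets, CDKN1A and SOX4 were higher in knockdown cells, and KLF2 and CDH1 were lower.

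Of 10 other genes described as direct targets of PRC2, 6 were tested. CDKN2B, which encodes the cell cycle inhibitor p15, was DE and rose from 898 ± 43.4 to 1364 ± 120 normalized counts (SD, n = 3 per group), and the log2 fold change was 0.61 (standard error 0.064, edgeR adjusted p = 4.9e-06). It was just under the 1.5-fold cutoff without control replicate 3 (0.58) or knockdown replicate 2 (0.55). CDKN2A, at the same locus, had 0.039 (edgeR adjusted p = 0.48). DAB2IP, a regulator of Ras, and the transcription factor GATA6 fell by 0.41 and decreased by 0.39 on the log2 scale. CDKN1C had -0.36 and did not pass (edgeR adjusted p = 0.17). The 3′ UTR of CDKN2B holds 2 matches to the sense seed of the siRNA, 1 of them of 8 bases. Those of GATA6 and CDKN1C each hold 1 match of 7 bases to the same seed. The part of these matches in the changes was not tested. RUNX3, CCND2, GATA4 and PAX6 had at most 2 counts in any library.

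EZH2 is known to be higher in dividing cells, so genes of proliferation were read beside it. Of 10 such genes, 8 fell and none rose with edgeR, against 25.0% and 23.3% of all genes tested, and the median log2 fold change was -0.24. The calls of MCM2 (-0.14) and MCM6 (-0.15) were lost with library size alone as scaling (-0.07 and -0.09) and when knockdown replicates 1 and 2 were left out in turn, that of MCM2 also in the unstranded counts and that of MCM6 also without control replicate 3. Their summed normalized counts over the 10 genes were 115852 to 126166 in control and 89664 to 93256 in knockdown libraries. CCNA2 (-0.61) and MKI67 (-0.79) were DE. The 3′ UTR of CCNA2 holds 1 match of 8 bases to the antisense seed of the siRNA. Those of MKI67 and CCNB1 each hold 1 match of 7 bases to the sense seed. The part of these matches in the changes was not tested. E2F1 had 0.059 (edgeR adjusted p = 0.35). EZH2 rose while these genes fell, EED did not pass, and the part of proliferation in the levels of the Polycomb genes was not tested. Cell type markers moved as well. Of the 6 epithelial markers tested, 5 fell and 0 rose, and the summed normalized counts were 199952 to 210812 in control and 127729 to 133727 in knockdown libraries. KRT7 and KRT19 were among those that fell, a reduction that the paper could not reproduce in its follow-up measurements. Of the 5 stromal markers tested, 3 fell and 0 rose, while the sums, 219074 to 237960 in control and 221064 to 223876 in knockdown libraries, overlapped. COL1A1 and COL3A1 made up most of these sums, and PDGFRA fell by 1.52 on the log2 scale. Of the 3 endothelial markers tested, 1 rose (CDH5, log2 fold change 1.45) and 1 fell (KDR, -0.68). The sums, mostly of KDR, were 1590 to 1623 in control and 1112 to 1186 in knockdown libraries. PECAM1 and EMCN did not pass the filter on low counts. Of the 2 leukocyte markers tested, CD14 fell, and the sums were 1621 to 1826 and 847 to 908. Their part in the results for the Polycomb genes was not tested.

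The genes whose log2 CPM followed EZH2 most closely over the 6 libraries were LINS1 (Pearson r = 0.998), PPP1R15A (0.997), TIRAP (0.996), METTL4 (0.995) and HNRNPAB (0.995). They are given as a description only. Among the 11177 genes compared, each with a mean of at least 100 normalized counts, 536 had an r over 0.95, and the 6 libraries share the difference between the 2 groups.

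**Figure D5:**
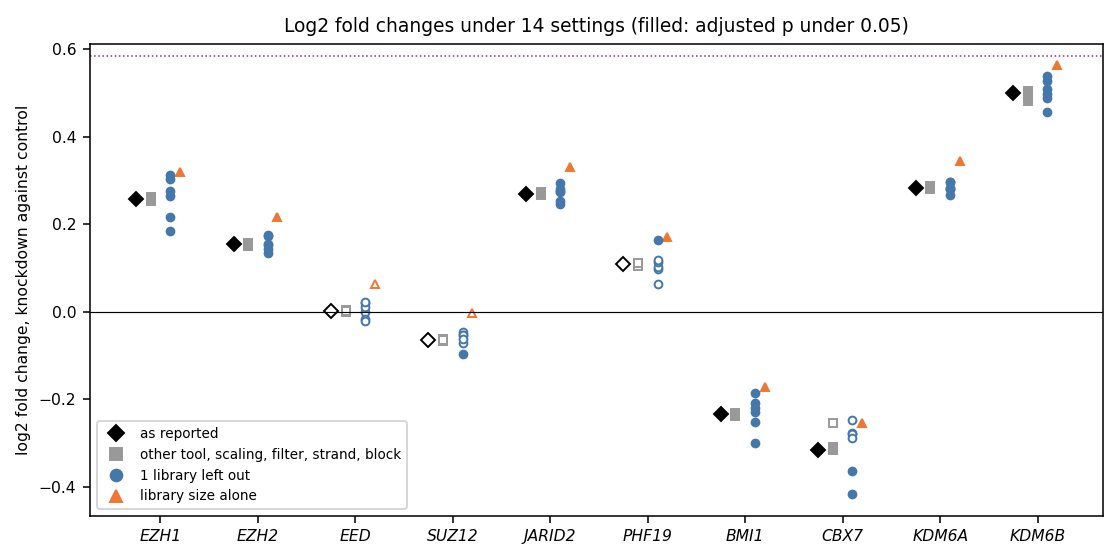
Log2 fold change (y axis, knockdown against control) of the 10 genes as reported and under 13 other settings, with an adjusted p under 0.05 as a filled symbol and the 1.5-fold cutoff as a dotted line. EZH1, EZH2, JARID2, BMI1, KDM6A and KDM6B are filled under all settings and stay under a 1.5-fold change, while CBX7, PHF19 and SUZ12 change between filled and open.

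Across the settings shown in that plot, the log2 fold change of KDM6B stayed between 0.46 and 0.56, that of KDM6A between 0.27 and 0.35 and that of JARID2 between 0.25 and 0.33. EZH2 ranged from 0.13 to 0.22 and EZH1 from 0.18 to 0.32, and BMI1 from -0.30 to -0.17. These 6 genes passed the test under 14 of 14 settings, CBX7 under 9, PHF19 under 2, SUZ12 under 1 and EED under 0 of 14, with adjusted p values of EED from 0.25 upward.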

How the data were processed

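Poly-A RNA of 12Z cells was sequenced in 125-base read pairs. The authors aligned the reads with STAR 2.7.6a to GRCh38.p13 with GENCODE v36, kept reads with 1 mapping place, and deposited raw counts of read pairs per gene, per library and not normalized. Column 4 (read 1 opposite to the gene) held 93.9% to 94.1% of the stranded counts and was used. Rows outside genes were left out (4.38% to 5.22% of uniquely mapped reads in no gene, 3.88% to 4.23% on more than 1 gene).

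Genes were named and measured with GENCODE v44, which matched 60463 of 60660 identifiers. Counts were filtered with filterByExpr (minimum count 10) and compared in edgeR 4.0.16 (R 4.3.3) by its quasi-likelihood F-test with condition as the only term. Adjusted p values are those of Benjamini and Hochberg over the 15155 genes tested. DESeq2 1.42.0, other scalings and filters, the unstranded counts, a block for replicate number and each library left out were alternatives. On simulated data for this comparison, edgeR recovered 195 of 200 changed genes with 15 false calls over 15005 genes. The simulation held far fewer changed genes than the 7315 that passed here, so these counts may not carry over to the 10 genes. The genes and lists were chosen with earlier results of these data known. The rule for named genes took the 10, LINC01133, the core PRC2 genes and the reported partners and targets of LINC01133. It also took the highest and lowest gene and any DE gene of each list, and the 5 genes most like EZH2. Paralogs, pseudogenes or readthrough genes that share exons with the 10 were taken too. Others named were chosen after their values were seen. Some genes of the lists are counted but not reported here.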

Additional observations from a re-analysis of the deposited data

How the results depend on the processing

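With 27742562 or more counts per library, each of the 10 genes had at least 342 normalized counts (the lowest for CBX7), and 3 libraries per group limit the exact tests. Of the 1273 alternative values of single genes on the lists, 1195 stayed on their side of the threshold, 29 passed newly and 49 no longer passed. The number of the 10 genes that fell was 2 as reported, 1 with the unstranded column and 1 to 2 with each library left out (1 where control replicate 3 or knockdown replicates 1 and 2 were left out in turn, each time by the loss of CBX7). The number of DE Polycomb genes was 2 as reported and 1 to 2 with each library left out. In the order by level per length, 5 of 10 ranks were kept with the longest transcript. Same-numbered libraries did not deviate together (correlations -0.015, 0.0049 and 0.057), and differently numbered ones had correlations from -0.066 to 0.071. With 3 libraries per group, these values cannot show whether libraries were prepared in pairs. With the replicate number as a block, 7251 genes passed, 7 of the 10 among them, and no call of the 10 changed. All genes that passed numbered 7315 as reported, 7405 without a filter and 6332 with DESeq2. Library size alone as scaling moved the median of all genes to 0.066 on the log2 scale, and the DE genes that were higher from 45.2% to 55.9%.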
